A study of Mus musculus with 12 samples.

Results

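The Slc25 genes encode the mitochondrial carriers. Members were chosen by symbol, Slc25a followed by a number, and 45 of the 56748 genes in the deposited mouse table are described. The study compared rod photoreceptors that lack the tyrosine phosphatase Shp2, encoded by Ptpn11, with rods that keep 1 working copy. KO mice carried RiboTag, Shp2fl/fl and i75-Rod-Cre, and their Het littermates carried RiboTag, Shp2fl/+ and i75-Rod-Cre, so that Cre and the tagged ribosome were common to both genotypes, and all mice were 2 weeks old. The rhodopsin promoter drove Cre, and RiboTag put a hemagglutinin tag on the ribosomal protein Rpl22 wherever Cre had acted. RNA bound to tagged ribosomes (translating ribosome affinity purification, TRAP) is called rods, and RNA of the whole retina before the pull-down is called retina. There were 3 libraries each of Het rods, KO rods, Het retina and KO retina, 12 in all. Control titles read wild type, whereas their genotype label is heterozygous, and the label was used. No source states which libraries came from the same mouse, so a p-value measures only the spread between these libraries.

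Carriers of this family sit mostly in the inner mitochondrial membrane and exchange nucleotides, phosphate, organic acids, amino acids, cofactors and metals between cytosol and matrix. They let ATP leave, let phosphate enter and move reducing equivalents through the malate-aspartate shuttle. Rods hold densely packed mitochondria in the inner segment and have a very high demand for ATP, and the retina also relies heavily on aerobic glycolysis. Many carriers come as paralogous pairs whose members differ between tissues.

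Deposited values are whole numbers with nearly the same sum in every library of a fraction, 16263948 to 16265259 in rods and 14525527 to 14527992 in retina. Steps between low values, read as whole reads times a factor for each library, gave estimates of 11890000 to 25280000 reads per rod library and 9980000 to 19230000 per retina library, where Het retina 3 could not be estimated. A value of 0 then allowed up to 3 reads, a share of 1.2e-05% to 3e-05% of reads in the libraries with an estimate, for counting error only. All 15 rod markers were higher in rods than in retina in both genotypes, with summed values of 2963939 to 3543934 in rods and 876019 to 1142948 in retina. All 9 cone markers were lower in rods in both genotypes. Summed Muller glia markers were 2175 to 3685 in rods and 54610 to 87142 in retina, and amacrine, ganglion, horizontal, microglial and vascular markers were lower in rods wherever they were tested. Of 10 bipolar markers 8 were lower in both genotypes, Otx2 was higher and Prkca was not called. Markers of the retinal pigment epithelium were lower for 6 of 6 tested in Het and 2 of 7 in KO, and lens markers for 0 of 6 in Het and 5 of 6 in KO. Lens markers summed to 112 in Het retina 1, to 64188 to 724339 in the other retina libraries, highest in KO retina 3, and to 4 to 12324 in rods. Ptpn11 itself was listed in Het rods at 2511, 2439 and 2431 and in KO rods at 1735, 2139 and 1971 (log2 fold change -0.23, standard error 0.09, adjusted p = 0.0775 from limma). The KO rod values lay below the Het values without overlap. This gene-level value covers exons outside the deleted part, and loss of that part was not tested. Fewer cells of a type and less RNA per cell cannot be told apart in these bulk libraries.

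The carriers took a near equal share of both fractions, 0.210% to 0.253% of the summed values in retina and 0.225% to 0.246% in rods. Within that share the sum of the phosphate carrier Slc25a3 and the main adenine nucleotide carriers Slc25a4 and Slc25a5 weighed more in rods. Of these, Slc25a5 had a larger share in every rod library than in any retina library. Slc25a4 had a smaller share in every rod library, and the shares of Slc25a3 overlapped. Slc25a3, Slc25a4 and Slc25a5 together made up 47.3% to 51.4% of the described carriers in the 6 rod libraries and 38.3% to 42.8% in the 6 retina libraries, without overlap. Between 6 and 9 carriers were listed at 0 in a rod library and at most 2 in a retina library.

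Between genes, levels were compared as deposited value per kilobase of the longest coding transcript, within 1 fraction. Slc25a5, the ADP/ATP carrier of proliferating and many other cells (ANT2), led in rods with 6087 ± 143 per kb in Het and 6487 ± 229 in KO (SD, n = 3). Slc25a3 (3392 ± 89.4) and Slc25a4 (3013 ± 169) followed in Het rods, and their order was the other way round in KO rods (2854 ± 213 and 3145 ± 136), so these neighbours are not separated. The pyrimidine nucleotide carrier Slc25a33 (1285 ± 69.1 in Het rods) and the oxoglutarate/malate carrier Slc25a11 (1049 ± 82.1) came next. In Het retina the leading carriers were Slc25a4, the muscle and nerve ADP/ATP carrier (ANT1), at 3072 ± 335 per kb, Slc25a5 at 2860 ± 226 and Slc25a3 at 2399 ± 152, of which the first pair lie within their spread. Slc25a23 (884 ± 208) and Slc25a11 (781 ± 64.3) were the fourth and the fifth in retina. These places rest on the transcript length: with the median length of coding transcripts, Slc25a23 was the first in retina (3878 per kb in Het) and Slc25a11 was the fourth in rods (2332 per kb in Het).

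RefSeq promoter windows were found for 35 of the 45 carriers, and 4 are shown because they belong to carriers on which the fraction comparison below turns. Slc25a5, Slc25a3 and Slc25a12 were higher in rods, and Slc25a1 was nearly absent from them. Each run holds the 250 bases before the annotated start in GRCm38.p6, 5′ to 3′ on the strand of the gene, with matches to searched motifs in capitals. They lie at chrX:36795347-36795596 (plus strand), chr10:91123968-91124217 (minus strand), chr2:71367756-71368005 (minus strand) and chr16:17928220-17928469 (minus strand), in this order.
Slc25a5: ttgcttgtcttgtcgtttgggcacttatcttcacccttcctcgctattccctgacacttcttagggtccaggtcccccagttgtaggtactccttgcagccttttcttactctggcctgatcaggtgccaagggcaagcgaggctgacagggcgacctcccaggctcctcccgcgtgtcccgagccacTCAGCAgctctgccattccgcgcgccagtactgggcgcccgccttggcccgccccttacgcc
Slc25a3: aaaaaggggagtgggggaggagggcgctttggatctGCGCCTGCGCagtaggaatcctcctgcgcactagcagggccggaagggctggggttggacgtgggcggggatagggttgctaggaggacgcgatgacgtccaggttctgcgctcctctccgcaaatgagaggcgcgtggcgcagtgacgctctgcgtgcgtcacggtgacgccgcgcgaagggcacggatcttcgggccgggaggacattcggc
Slc25a12: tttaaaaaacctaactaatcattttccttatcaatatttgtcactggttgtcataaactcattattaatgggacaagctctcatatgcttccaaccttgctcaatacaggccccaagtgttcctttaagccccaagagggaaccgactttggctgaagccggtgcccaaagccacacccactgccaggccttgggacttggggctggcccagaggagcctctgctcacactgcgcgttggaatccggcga
Slc25a1: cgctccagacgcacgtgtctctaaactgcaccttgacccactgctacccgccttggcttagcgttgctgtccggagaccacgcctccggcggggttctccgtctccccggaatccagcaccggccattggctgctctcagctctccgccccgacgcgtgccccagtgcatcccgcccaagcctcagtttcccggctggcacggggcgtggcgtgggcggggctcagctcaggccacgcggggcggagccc
The capitals mark a TGCTGA match on the other strand in Slc25a5 and a match to the NRF1 site in Slc25a3. The 35 carriers had 45 windows. The letters TAATCC, the core bound by the photoreceptor factor CRX, stood on either strand in 6.25% of 32851 mouse promoter windows of this length. They stood in 0 of the 45 carrier windows. TGCTGA, a part of the site of the rod factor NRL, stood in 16.1% of all windows. It stood in 4 of the 45 carrier windows, those of Slc25a5, Slc25a16, Slc25a21 and Slc25a34. The site of the mitochondrial biogenesis factor NRF1 (GCGCA and GCGC with any base between) stood in 3.74% of all windows. Among the carriers it stood in 2 windows, of Slc25a3 and Slc25a31. AAGGTCA, the site of estrogen-related receptors, stood in 4.08% of all windows and in 1 carrier window, of Slc25a34. These are matches of letters and say nothing of binding.

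Which carriers were higher or lower in the ribosome-bound RNA of rods than in RNA of the whole retina? The retina RNA included that of rods and was not bound to tagged ribosomes. Cell content, ribosome loading and effects of the pull-down therefore cannot be told apart. After scaling and a filter on low values, 36 carriers were tested in each genotype, and a carrier was called when the adjusted p from limma was below 0.05 and the log2 fold change was beyond 0.5 in size. In Het mice 10 carriers were higher and 14 lower in rods, where 22.7% of all 16110 tested genes were higher and 36.4% lower. In KO mice 12 were higher and 14 lower, where 26.9% of all 16121 genes were higher and 36.1% lower. The median log2 fold change of the carriers was 0.08 in Het and -0.02 in KO, beside -0.08 and 0.01 over all genes. The family therefore split by member, with shares close to those of all genes. Scaling by library sums alone moved the median of all genes by -0.43 in Het and -0.55 in KO. Then 4 carriers were higher and 16 lower in Het and 7 higher and 18 lower in KO, where 7.25% and 7.1% of all genes were higher and 45.9% and 48.7% lower. Without Het retina 1, 9 of 36 carriers were lower in Het, beside 5764 of all 16678 genes. Because of the scaling, a gene at an equal scaled level had a deposited value in rods that was 0.824 times that in retina in Het and 0.758 times in KO. The values below are as deposited, whereas fold changes and statements on overlap refer to scaled values.

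**Figure D1:**
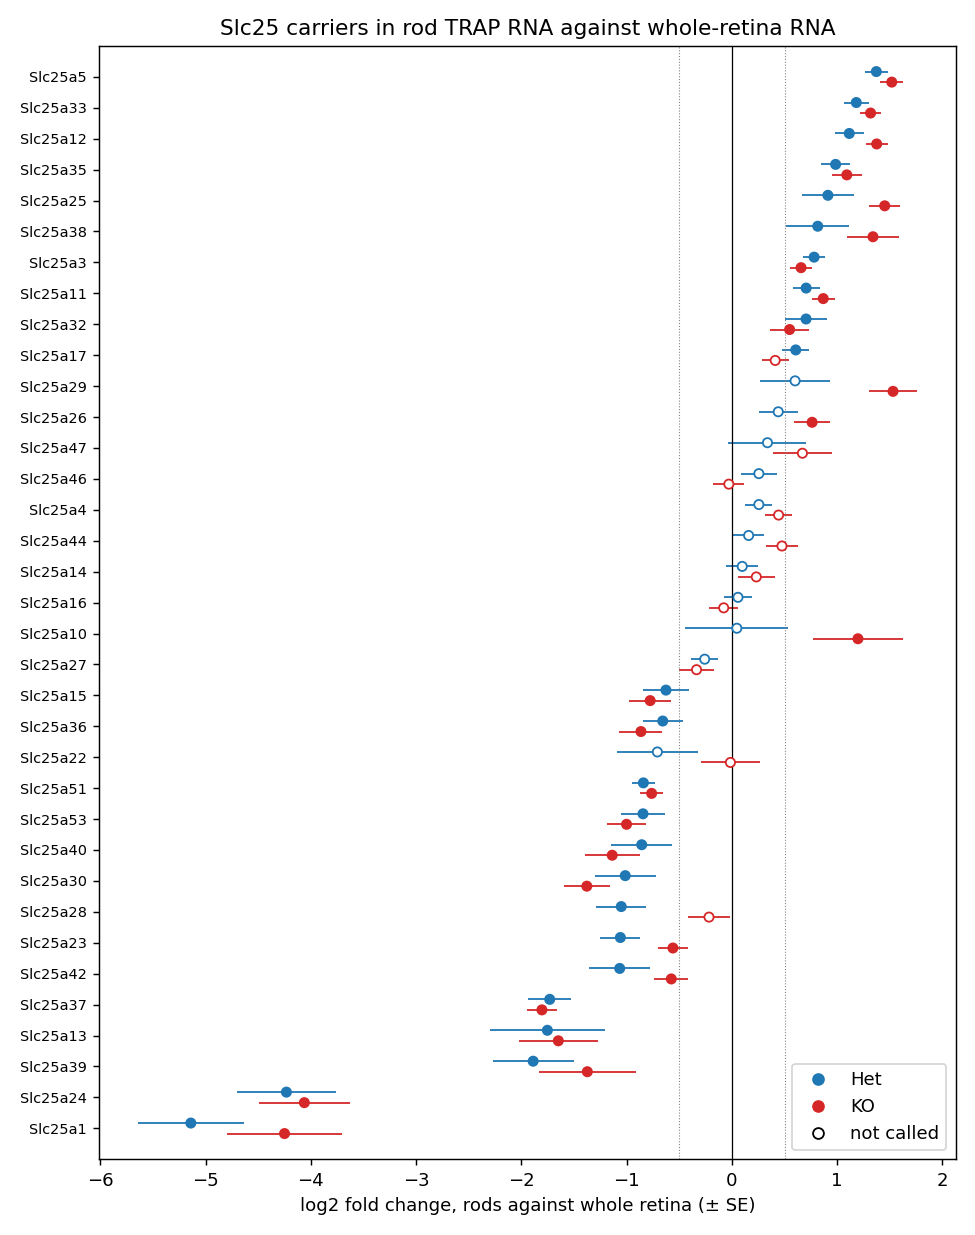
Log2 fold change of rods against retina with its standard error for the carriers tested in both genotypes, sorted by the Het value (blue, Het; red, KO; filled, called; dotted lines, the limits at 0.5). Slc25a5 stands at the top with 1.37 in Het and Slc25a1 at the bottom with -5.14, and Slc25a10 has 0.05 in Het beside 1.20 in KO.

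Of the carriers that serve oxidative phosphorylation most directly, Slc25a5 and Slc25a3 were higher in rods and Slc25a4 was not called. Slc25a5 (ENSMUSG00000016319) had deposited values of 7344, 7668 and 7630 in Het rods, 7772, 8339 and 8021 in KO rods, 3666, 3747 and 3226 in Het retina and 3713, 3482 and 3922 in KO retina. Every rod library lay far above every retina library, a 2.59-fold difference in Het (log2 1.37, standard error 0.11, adjusted p = 1.1e-05 from limma) and 2.87-fold in KO (1.52, standard error 0.11, adjusted p = 6.1e-06). Slc25a3 (ENSMUSG00000061904), which brings phosphate into the matrix, had 5311, 5500 and 5594 in Het rods and 3687, 3768 and 4147 in Het retina. It was higher without overlap in both genotypes, with log2 fold changes of 0.78 in Het and 0.66 in KO (adjusted p = 2.3e-04 and 5e-04 from limma). Slc25a4 had 5427, 6025 and 5947 in Het rods and 5433, 6646 and 5659 in Het retina, which overlapped after scaling (log2 fold change 0.26, standard error 0.13, adjusted p = 0.11 from limma), and its KO value of 0.44 was under the fold limit. The processed copy Slc25a5-ps was listed at 5 to 15 in every library, so few reads were placed on it. Slc25a31, the ADP/ATP carrier of the testis, had values of 29, 10 and 13 in Het rods, 4, 0 and 5 in KO rods and was tested only in Het, where it was not called.

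The carriers of the malate-aspartate shuttle were higher in rods, and their paralogue was close to 0. Slc25a12 (ENSMUSG00000027010), the aspartate/glutamate carrier aralar, had 3282, 3130 and 2768 in Het rods, 3316, 3396 and 3485 in KO rods, 1958, 1777 and 1437 in Het retina and 1854, 1589 and 1749 in KO retina. The fractions did not overlap, and the log2 fold changes were 1.11 in Het (standard error 0.14, adjusted p = 1.4e-04 from limma) and 1.38 in KO (standard error 0.11, adjusted p = 8.5e-06). Slc25a11 had 1656, 1793 and 1937 in Het rods and 1257, 1462 and 1290 in Het retina, with log2 fold changes of 0.71 and 0.87 in Het and KO (adjusted p = 0.0013 and 1.5e-04 from limma). Its annotated exons overlap those of Rnf167 on the opposite strand by up to 189 bases, and the counting strand is not given in the sources used here. The other aspartate/glutamate carrier, Slc25a13 (citrin, prominent in liver), had 4, 2 and 8 in Het rods, 4, 2 and 3 in KO rods, 14, 15 and 51 in Het retina and 12, 16 and 25 in KO retina. It was lower in rods by -1.75 in Het (standard error 0.55, adjusted p = 0.021 from limma) and -1.65 in KO (standard error 0.37, adjusted p = 0.004). It passed the filter on low values through its retina values only, so the filter set the direction of these calls. Its ratio of retina to rods in estimated reads was 4.02 in Het (95% exact interval for counting error 2.03 to 8.39, on 13 rod reads) and 7.43 in KO (3.52 to 18, on 8 rod reads), the smallest among the carriers nearly absent from rods. In Het rods the level of Slc25a12 was 482 ± 41.6 per kb and that of Slc25a13 1.50 ± 0.98 per kb (SD, n = 3). The shuttle enzymes Got1, Got2, Mdh1 and Mdh2 were all higher in rods, with log2 fold changes of 0.72 to 1.0 in Het and 0.76 to 1.44 in KO. Over all genes 22.7% were higher in Het and 26.9% in KO.

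The citrate carrier was nearly absent from rods. Slc25a1 (ENSMUSG00000003528), which exports citrate for fatty acid synthesis in the cytosol, had 0, 2 and 6 in Het rods, 7, 1 and 11 in KO rods, beside 145, 181 and 155 in Het retina and 178, 119 and 215 in KO retina. Slc25a1 passed the filter on low values through its retina values, so the filter set the direction of its calls. No rod library came near a retina library, and the log2 fold changes were -5.14 in Het (standard error 0.50, adjusted p = 3.7e-05 from limma) and -4.25 in KO (standard error 0.54, adjusted p = 1.5e-04). In estimated reads this was 8 in Het rods against 334 in the 2 Het retina libraries with a known depth, a ratio of retina to rods per read of 72.7 (95% exact interval 36.4 to 169.7). In KO mice 16 reads stood against 515, a ratio of 34.1 (20.8 to 60.2). Intervals of such ratios treat pooled reads of amplified libraries as independent and cover counting error only, not the spread between libraries. Slc25a21, the carrier of 2-oxoadipate and related acids, had values of 0 to 1 in Het rods and 0 to 2 in KO rods, against 6 to 18 and 12 to 19 in retina. It was tested in KO alone (log2 fold change -2.62, standard error 0.41, adjusted p = 4.9e-04 from limma), where its 2 estimated rod reads stood against 47 in retina. There it passed the filter on low values through its retina values only, so the filter set the direction of this call. The dicarboxylate carrier Slc25a10 had 66, 135 and 62 in Het rods and 83, 195 and 55 in Het retina, which overlapped, and 138, 175 and 147 in KO rods against 86, 44 and 169 in KO retina (1.20, standard error 0.43, adjusted p = 0.034 from limma). That call was lost without KO retina 1, without KO retina 2 and without each KO rod library in turn, where the log2 fold change was 0.73 to 1.27.

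**Figure D2:**
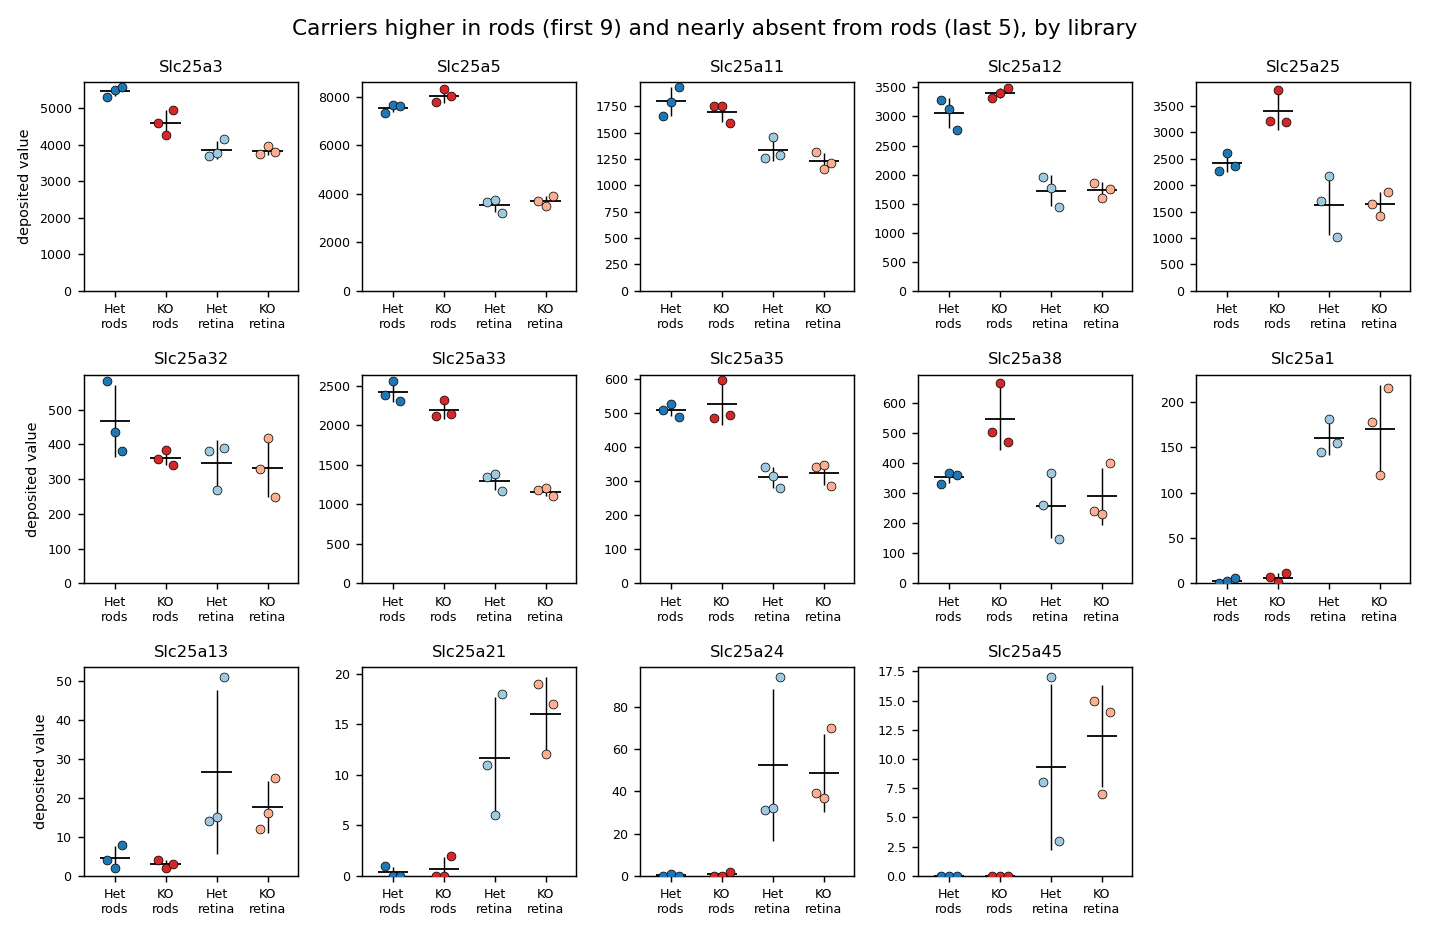
Deposited values of single libraries for the 9 carriers higher in rods in both genotypes and the 5 nearly absent from rods that passed the filter on low values in retina (points, libraries; horizontal lines, means; vertical lines, SD, n = 3; each panel has its own axis from 0). Slc25a5 reaches 8339 in rods and 3922 in retina, and Slc25a45 is at 0 in every rod library.

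Among the calcium-regulated carriers, which exchange ATP-Mg for phosphate and so adjust the adenine nucleotide pool of the matrix, 1 paralogue was high in rods, 1 lower and 1 nearly absent. Slc25a25 (ENSMUSG00000026819) had 2274, 2611 and 2369 in Het rods, 3213, 3808 and 3189 in KO rods, 1700, 2166 and 1024 in Het retina and 1645, 1417 and 1875 in KO retina. Rods lay above retina in both genotypes, with log2 fold changes of 0.91 (standard error 0.25, adjusted p = 0.012 from limma) and 1.45 (standard error 0.15, adjusted p = 4.1e-05). Its exons overlap Naif1 on the opposite strand by up to 379 bases, and Naif1 was listed at 44 to 157. Slc25a23 had 1015, 1185 and 1264 in Het rods and 3108, 3592 and 2212 in Het retina and was lower in rods by -1.06 in Het and -0.56 in KO (adjusted p = 0.0013 and 0.0078 from limma). The KO call of Slc25a23 was lost without KO retina 3, where the value was -0.50. Slc25a24 had 0, 1 and 0 in Het rods, 0, 0 and 2 in KO rods, against 31, 32 and 94 in Het retina and 39, 37 and 70 in KO retina. Its log2 fold changes were -4.23 and -4.06 (adjusted p = 7.6e-05 and 5.5e-05 from limma), values that depend on the pseudocount, and the ratio of retina to rods per read was 56.6 in Het (95% exact interval 15 to 476.9) and 81.7 in KO (22.2 to 680.5), each on 2 estimated rod reads. Slc25a24 passed the filter on low values through its retina values only, so the filter set the direction of its calls. Slc25a13 and Slc25a24 were highest in Het retina 3 and KO retina 3, and summed markers of the retinal pigment epithelium were 5870 and 12239 in these libraries and 476 to 2263 in the other retina libraries. The part of that tissue in the retina values was not tested, and without Het retina 3 the Het log2 fold change of Slc25a13 was -1.10 (adjusted p = 0.062 from limma). The call of Slc25a13 in Het was also lost without Het rods 1 and without Het rods 2 (-1.73 and -1.43). Slc25a41, the short member of the group, was listed at 0 to 3 in rods and 5 to 15 in retina and was not tested in either fraction comparison.

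**Figure D3:**
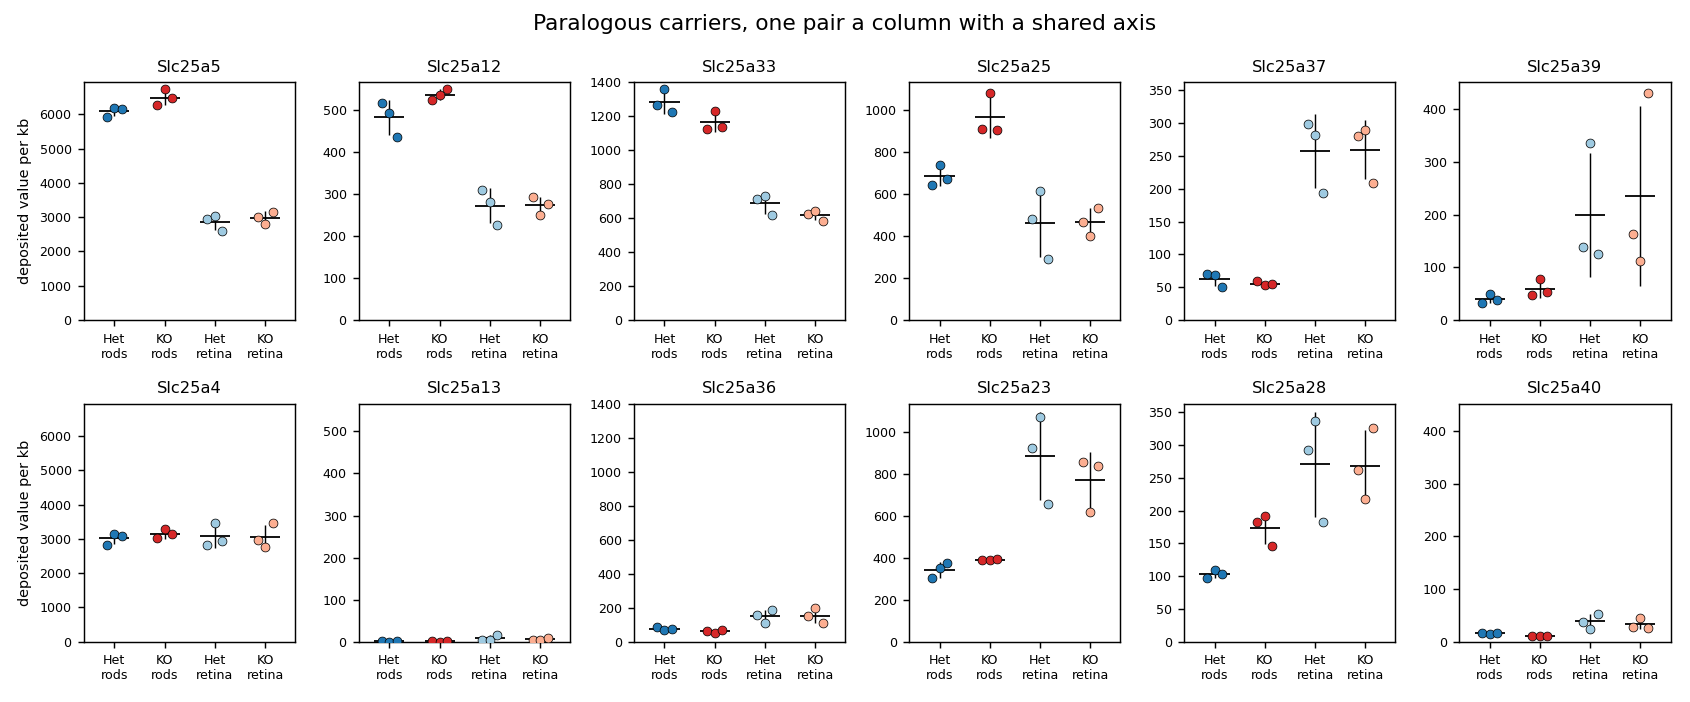
Deposited value per kilobase in single libraries for 6 paralogous pairs, a pair in each column with a shared axis (points, libraries; horizontal lines, means; vertical lines, SD, n = 3). Slc25a12 stands at 482 per kb in Het rods where Slc25a13 is at 1.50, and Slc25a33 stands at 1285 where Slc25a36 is at 76.7.

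Carriers of cofactors and nucleotides went both ways: in either genotype 3 of 8 were higher in rods and 3 lower. Over all genes 22.7% were higher and 36.4% lower in Het, and 26.9% and 36.1% in KO. The pyrimidine nucleotide carriers were opposed. Slc25a33 (ENSMUSG00000028982) had 2388, 2569 and 2316 in Het rods and 1346, 1382 and 1168 in Het retina, without overlap, and its log2 fold changes were 1.18 and 1.32 in Het and KO (adjusted p = 4.1e-05 and 9.7e-06 from limma). An antisense gene, Gm13068, shares up to 281 exonic bases with it and was listed at 170 to 311. Slc25a36 had 442, 378 and 383 in Het rods and 813, 571 and 972 in Het retina, with log2 fold changes of -0.66 and -0.86 (adjusted p = 0.015 and 0.005 from limma). The Het call of Slc25a36 was lost without Het retina 1, Het retina 3, Het rods 2 or Het rods 3, where the value was -0.63 to -0.37. Slc25a32, the folate and FAD carrier, was higher by 0.70 in Het and 0.55 in KO (adjusted p = 0.014 and 0.028 from limma). Its deposited KO values were 358, 383 and 341 in rods and 328, 418 and 249 in retina, so the KO call rests on the scaling, and it was -0.01 with library sums alone. The call of Slc25a32 was also lost without Het rods 1 (0.54) in Het and, in KO, without any KO library other than KO retina 2 (0.35 to 0.60). The peroxisomal carrier Slc25a17 was called in Het alone (0.61, adjusted p = 0.003 from limma; 0.41 in KO), and the S-adenosylmethionine carrier Slc25a26 in KO alone (0.76, adjusted p = 0.0038; 0.44 in Het). The coenzyme A carrier Slc25a42 (-1.07 and -0.58) and the NAD carrier Slc25a51 (-0.84 and -0.76) were lower in both genotypes. Slc25a51 had 406, 413 and 408 in Het rods and 913, 855 and 907 in Het retina, the tightest values among the lower carriers of this group, although a small RNA gene lies within its exons on the same strand. Slc25a16, linked to coenzyme A, was called in neither genotype (0.06 and -0.08).

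Carriers of iron and glutathione were lower in rods, 4 of 4 in Het and 3 of 4 in KO, beside 36.4% and 36.1% of all genes. Slc25a37, mitoferrin-1, had 295, 284 and 213 in Het rods, 246, 220 and 229 in KO rods, 1245, 1179 and 807 in Het retina and 1171, 1211 and 870 in KO retina. Rod values were well below retina values, with log2 fold changes of -1.73 (standard error 0.20, adjusted p = 1.1e-04 from limma) and -1.80 (standard error 0.14, adjusted p = 1.1e-05). The other mitoferrin, Slc25a28, was lower in Het rods (-1.05, standard error 0.24, adjusted p = 0.0046 from limma) and overlapped in KO (-0.22, standard error 0.20, adjusted p = 0.36). The mitochondrial glutathione carrier Slc25a39 had 55, 82 and 64 in Het rods and 233, 565 and 211 in Het retina, and was lower by -1.89 in Het and -1.37 in KO (adjusted p = 0.0026 and 0.027 from limma). Its paralogue Slc25a40 was lower by -0.86 and -1.14 (adjusted p = 0.029 and 0.0042 from limma). Without KO rods 1 or KO rods 3 the KO call of Slc25a39 was lost (-1.23 and -1.29), and the Het call of Slc25a40 was lost without each Het library other than Het retina 2 (-0.89 to -0.49).

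Of the 7 amino acid carriers 5 were tested. Slc25a38, which brings glycine into the matrix for heme synthesis, had 330, 368 and 360 in Het rods, 503, 668 and 472 in KO rods, 259, 367 and 149 in Het retina and 239, 232 and 399 in KO retina. After scaling it was higher in rods in both genotypes (0.82, standard error 0.30, adjusted p = 0.042 from limma, and 1.34, standard error 0.25, adjusted p = 0.0014), and the Het call was lost without each Het rod library in turn (0.77 to 0.87). The basic amino acid carrier Slc25a29 was called in KO alone (1.53, standard error 0.22, adjusted p = 3.4e-04 from limma; 0.60, standard error 0.33 in Het). The ornithine carrier Slc25a15 was lower in both (-0.63 and -0.78, adjusted p = 0.036 and 0.0077 from limma), and its Het call was lost without Het retina 1, Het retina 3, Het rods 2 or Het rods 3 (-0.64 to -0.39). The glutamate carrier Slc25a22 had 511, 709 and 506 in Het rods and 1054, 2098 and 649 in Het retina and was called in neither genotype (-0.71 and -0.01), and nor was the branched-chain amino acid carrier Slc25a44 (0.16 and 0.48). Slc25a2 and Slc25a18, the paralogues of Slc25a15 and Slc25a22, had values of at most 13 in any library and were tested in no comparison.

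Of the uncoupling-protein-like carriers, Slc25a30 was lower in rods (-1.01 and -1.38, adjusted p = 0.014 and 5.9e-04 from limma), and Slc25a14 (0.10 and 0.23) and Slc25a27 (-0.26 and -0.34) were not called. The Het call of Slc25a30 was lost without Het retina 1 (-0.83) or Het retina 3 (-0.72). Slc25a46, an outer membrane protein of mitochondrial dynamics, was not called either (0.26 and -0.03). Among carriers without a settled substrate, Slc25a35 had 509, 525 and 488 in Het rods and 341, 313 and 279 in Het retina and was higher in both genotypes (0.99 and 1.09, adjusted p = 2.7e-04 and 1.9e-04 from limma). Up to 545 of its exonic bases lie opposite Rangrf, which was listed at 3 to 20. Slc25a53 was lower (-0.84 and -1.0, adjusted p = 0.0072 and 0.0014 from limma), and its Het call was lost without Het retina 1 (-0.76, adjusted p = 0.052). Slc25a45 was at 0 in all 6 rod libraries and at 8, 17 and 3 in Het retina and 15, 7 and 14 in KO retina. Against the 3 reads that a count of 0 over the group allows, Slc25a45 was at least 14.5-fold lower per read in Het rods and at least 12.4-fold lower in KO rods. Slc25a47 was not called (0.34 and 0.67), and Slc25a34, Slc25a43, Slc25a48 and Slc25a54 had values of at most 18 in any library and were tested in no comparison.

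In all, 9 carriers were higher in rods in both genotypes (Slc25a3, Slc25a5, Slc25a11, Slc25a12, Slc25a25, Slc25a32, Slc25a33, Slc25a35 and Slc25a38). Slc25a5, Slc25a12, Slc25a33 and Slc25a35 were also called in both with library sums alone. A further 5 were nearly absent, by a log2 fold change under -3 in both genotypes (Slc25a1 and Slc25a24) or by a mean deposited value below 10 in both rod groups while passing the filter on low values in retina (Slc25a13, Slc25a21 and Slc25a45), and 10 others were lower in both genotypes. The shares of all genes called in both genotypes were not counted. The nearly absent carriers tested between fractions passed the filter on low values through retina alone, so the direction of their calls was fixed. Another 7 carriers had rod means below 10 but did not pass that filter, with at most 18 in any retina library (Slc25a2, Slc25a18, Slc25a34, Slc25a41, Slc25a43, Slc25a48 and Slc25a54). In Het mice same-numbered rod and retina libraries deviated together, and with the replicate number as a block 15 in place of 14 carriers were lower.

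Genes around the family were read from lists. Family members under other symbols gave 1 call of 3 tested in each genotype: Ucp2, an uncoupling protein, was lower in rods (-4.37 and -4.74), with deposited values of 1 to 41 in rods and 233 to 1436 in retina, highest in KO retina 3. Of the import machinery for carriers 5 of 13 were higher in each genotype and 0 lower, beside 22.7% and 26.9% of all genes higher and 36.4% and 36.1% lower in Het and KO. Higher in both were the receptor subunit Tomm22 (1.07 and 0.95) and the TIM22 complex subunits Timm22 (0.57 and 0.66) and Timm29 (0.77 and 0.67). Tomm70a (0.59, 0.43 in KO) and Timm8a1 (0.68, 0.34 in KO) were called in Het alone, and Tomm40 (1.17, -0.04 in Het) and Timm13 (1.14, -0.28 in Het) in KO alone. Of other mitochondrial transport proteins 6 of 19 were higher and 6 lower in Het, and 5 of 20 higher and 7 lower in KO. Vdac2, an outer membrane channel, was higher (0.95 and 0.78), and the serine transporter Sfxn1 was lower (-5.10 and -5.33), with 6 to 22 in rods and 619 to 822 in retina. The subunits of the pyruvate carrier differed, Mpc1 being lower (-0.97 and -1.22) while Mpc2 was higher in Het (0.74) and had 0.38 in KO.

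Did loss of Shp2 change carriers in rods? Of 32 carriers tested, 7 were higher and 1 lower in KO rods, where 12.1% of all 13055 tested genes were higher and 1.55% lower. The higher ones were Slc25a10 (log2 fold change 0.98), Slc25a29 (0.93), Slc25a28 (0.84), Slc25a38 (0.72), Slc25a22 (0.71), Slc25a25 (0.60) and Slc25a42 (0.52), with adjusted p-values of 0.0025 to 0.046 from limma. Deposited values of Slc25a29 rose from 157, 208 and 191 to 305, 348 and 333, and those of Slc25a28 from 149, 169 and 159 to 281, 295 and 224. For all 7 the genotypes did not overlap, which adds no support because the calls rest on the same values. The share of all genes without overlap was not counted. The lower carrier was Slc25a46, where 1048, 839 and 796 fell to 531, 593 and 614 (-0.51, standard error 0.11, adjusted p = 0.0087 from limma). Its exons overlap B930094E09Rik on the opposite strand by up to 383 bases.

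These calls moved with the base composition of the transcripts. The 7 higher carriers had a median GC content of 57.8% and the 24 that were not called 48.5%, while Slc25a46 had 40.8%. Over the 32 carriers the Spearman correlation of GC content and log2 fold change was 0.87, as a description of points that share the same 6 libraries, beside 0.70 over 12907 genes. Between the 10% of genes highest and the 10% lowest in GC content, single libraries deviated by -0.81, -0.23 and -0.42 log2 in Het rods and by 0.42, 0.76 and 0.28 in KO rods, without overlap, so this trend and the genotype cannot be told apart. With the trend of each library removed, 0 of the 32 carriers were called in limma and 9 had an unadjusted p below 0.05, where 1.47% of all genes were called higher and 1.24% lower, so the count of 0 is near the share of all genes. The 8 carriers called before then had log2 fold changes of -0.27 to 0.33. Of them Slc25a25 (0.33) kept an adjusted p below 0.05 (0.014 from limma) and was under the fold limit alone. The same held for Slc25a12 (0.38, adjusted p = 0.0073 from limma), Slc25a33 (-0.30, 0.017), Slc25a11 (-0.28, 0.032) and Slc25a5 (0.24, 0.039), which were not called before. In a single limma fit to all 12 libraries, where the retina libraries share the estimate of the spread, 0 of the 32 carriers and 0.0% of all genes were called, and 8 carriers had an unadjusted p below 0.05. There the fold changes were not smaller: the median of the carriers was 0.17, beside 0.15 in the fit to the rod libraries, and the 8 carriers called before had adjusted p-values of 0.19 to 0.27 from limma.

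**Figure D4:**
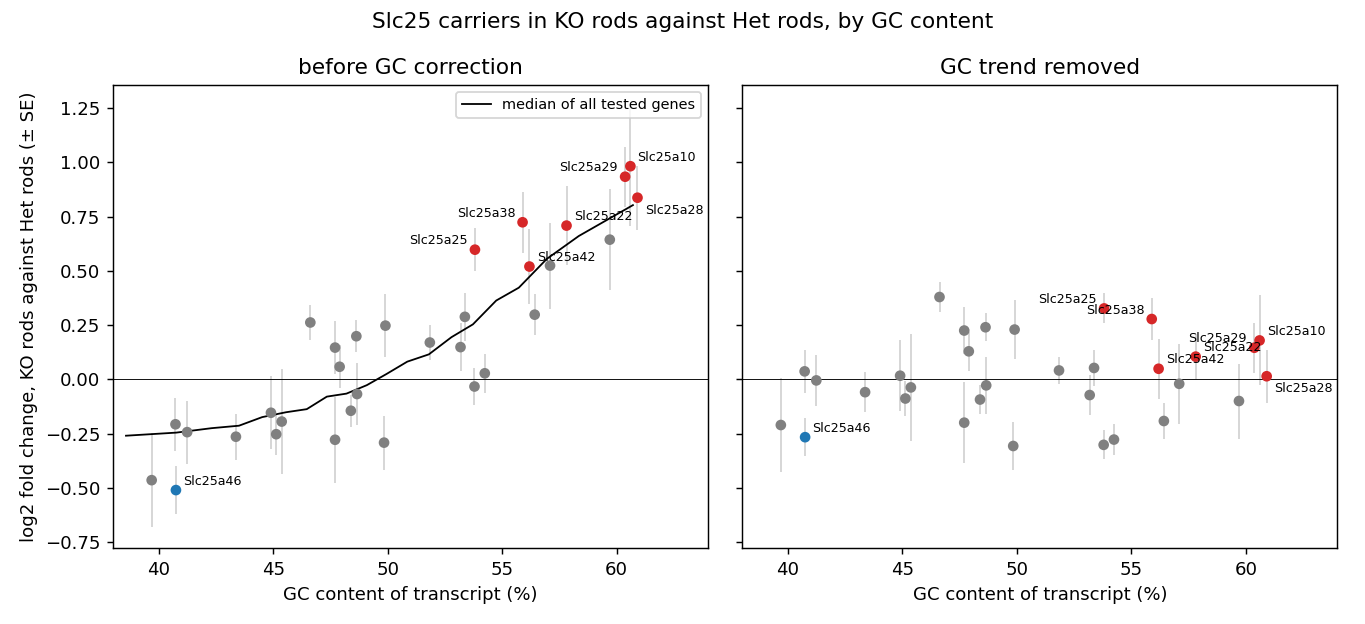
Log2 fold change of KO rods against Het rods with its standard error for 32 carriers, by the GC content of the longest coding transcript, before (left) and after (right) the GC trend of each library was removed (red and blue, called higher and lower before removal; black line, median of all tested genes in bins of GC content). Slc25a10, Slc25a28 and Slc25a29 lie near 1 on the left at 60.4% to 60.9% GC and between 0.01 and 0.18 on the right.

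The same libraries bear on the genotype gaps in the fraction comparison. Slc25a10, Slc25a22 and Slc25a39, all above 57% GC, were highest in Het retina 2 (195, 2098 and 565) and KO retina 3 (169, 1629 and 726), whose GC deviations of 0.86 and 0.90 log2 were the highest of the retina libraries. With the GC trend removed 12 of 36 carriers were higher in Het and 13 of 36 in KO, where 27.5% of all genes were higher in Het and 28.6% in KO. Higher in both genotypes were 12 carriers: all 9 above, together with Slc25a10, Slc25a29 and Slc25a47. The share of all genes higher in both was not counted. Single libraries also decided calls in KO against Het rods. Without KO rods 2, 3 carriers were higher in KO rods, without Het rods 1 or Het rods 3 there were 4, and without Het rods 1 none was lower. Slc25a28, Slc25a29 and Slc25a38 kept their call when any library was left out. Slc25a10 and Slc25a42 each lost it without any library other than Het rods 2, at 0.78 to 1.05 and at 0.36 to 0.57. Slc25a22 lost it without Het rods 1, Het rods 3 or KO rods 2 (0.50 to 0.63), Slc25a25 was at 0.46 without KO rods 2, and Slc25a46 at -0.40 without Het rods 1 and -0.45 without KO rods 1.

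In whole retina 0 of 37 carriers were called between KO and Het by limma, and 0 had an unadjusted p below 0.05. Over all 16863 genes 0.0% were called in either direction. Slc25a5 was 3546 ± 280 in Het and 3706 ± 220 in KO retina, and Slc25a12 was 1724 ± 265 and 1731 ± 133 (SD of deposited values, n = 3), differences smaller than the spread between libraries. The KO effect in rods minus that in retina was called by limma for 0 of 39 carriers and for 0.0% of 17192 genes, and 1 carrier, Slc25a28, had an unadjusted p below 0.05 (difference 0.84, standard error 0.33, adjusted p = 0.89 from limma). Whether carriers respond to loss of Shp2 differently in rods and retina was therefore not shown.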

How the data were processed

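Whole-retina RNA and TRAP RNA of rods from Het and KO mice were sequenced by the study after SMART-Seq V4 amplification of polyadenylated RNA, 12 libraries in all. The submitters' processing notes name CASAVA 1.8.2, HISAT2, DESeq2, edgeR and GRCm39, while the counting tool, the annotation and the strand setting are not given in the sources used here. The deposited values are treated as a score: they look like counts that the authors scaled per library and rounded to whole numbers, but no source used here states the scaling, so no count model was used. Steps between low values gave a scaling factor for 11 libraries, and all estimated reads and ratios per read rest on that reading.

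Groups follow the tissue and genotype labels. Values were scaled over the libraries compared by the trimmed mean of M values, filtered (at least 10 in as many libraries as the smaller group holds, and a sum of at least 15), and tested as log2(value + 2) with limma 3.58.1 in R 4.3.3 (trend and robust), with Benjamini-Hochberg adjustment over all genes tested. Fold changes on this scale understate those of low genes. The filter and limma were tested on simulated data. Same-numbered Het rod and retina libraries had correlations of their deviations of 0.24 to 0.43, so the numbers were taken to pair them. The main fits did not use this pairing, and the replicate block was run as an alternative only. In the other comparisons at least 1 correlation was below 0.1. GC content and transcript length came from GENCODE M21 on GRCm38, matched by identifier for 45 of 45 carriers, and promoters from RefSeq GRCm38.p6; no coordinates of the authors' build were derived. Python 3.11.15 and matplotlib 3.10.9 drew the figures.

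The carriers and all lists were chosen with earlier results of these data known. Genes were named if called higher in rods in both genotypes, nearly absent from rods while passing the filter in retina, called between genotypes, part of a paralogous pair, or among the 5 highest per kilobase; the remaining carriers described were named too. Some family members are not reported here. Alternatives were library sums alone, median-of-ratios scaling, pseudocounts of 0.5 and 8, no filter, leaving out each library, a replicate block, removal of the GC trend, both together, 1 fit over 12 libraries, removal of rod-depleted genes and, chosen after seeing the data, scaling over all 12 libraries.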

Additional observations from a re-analysis of the deposited data

How the results depend on the processing

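Counts of called carriers changed by less than 1.5 times in most alternatives. With library sums alone 4 carriers in Het and 7 in KO were higher in rods, and Slc25a32 in KO turned to -0.0119. In KO against Het rods, 0 were higher and 0 lower with the GC trend removed, alone or with the replicate block, and in 1 fit over 12 libraries; 0 were lower with scaling over 12 libraries, chosen after seeing the data, and 2 were lower without the filter. When each library was left out in turn, 8 to 13 carriers were higher and 9 to 15 lower in Het rods against retina, 10 to 14 and 14 to 17 in KO, and 3 to 7 and 0 to 2 in KO against Het rods. Over all genes 3135 to 4351 were higher and 5764 to 6127 lower in Het, and 3718 to 4380 and 5905 to 6325 in KO. In KO against Het rods these were 954 to 1623 and 94 to 333. In the retina and in the difference of KO effects, 0 were called under every alternative run. The replicate block gave 10 higher and 15 lower carriers in Het and 12 and 14 in KO. In KO against Het rods it gave 8 and 1, and the block ended no call of a carrier. Outside the Het fractions the numbers were not taken to pair the libraries. In KO fractions same-numbered libraries had correlations of 0.0275 to 0.3017, and libraries of different number had -0.2579 to 0.0254. Whether the numbers pair the KO libraries was not tested. Same-numbered correlations were 0.02 to 0.09 between rods and -0.58 to 0.39 between retinas. Depth limits the carriers near 0 in rods, where 0 to 16 estimated reads per group stood behind a value.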
